A study of Homo sapiens with 6 samples.

Results

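The amino acid transporters of the SLC7 family and their SLC3 heavy chains were described in A549 Rec and A549 MOCK cells. The group holds 9 genes of the 58676 listed, taken by symbol: the heavy chains SLC3A1 and SLC3A2, the cationic amino acid transporters SLC7A1 and SLC7A2, and the light chains SLC7A5, SLC7A6, SLC7A7, SLC7A8 and SLC7A9. SLC7A7 was chosen by its TPM, which was higher in A549 Rec, and its difference between the groups is therefore given as a description, with no test.

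A549 is a human lung adenocarcinoma cell line. A549 Rec cells carried a retroviral vector with the cDNA of human recoverin bearing a myc tag, and A549 MOCK cells carried the empty vector, so that both groups had the vector. Selection with puromycin is stated for the recoverin cells, and whether A549 MOCK cells were selected alike is not given in the sources used here. Recoverin (RCVRN) is a calcium-binding protein of photoreceptors that some tumours express. RNA was taken from 3 A549 Rec and 3 A549 MOCK samples grown in 2D culture, and the comparison asks how the recoverin cDNA changes the transcriptome. The labels do not say that the replicates came from separate cultures, and the sources used here do not say whether each line was a clone, so p-values measure the spread between these samples, which may be technical. In RNA from whole cultures, fewer cells that express a gene and less of its RNA per cell cannot be told apart.

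Carriers of the SLC7 family move amino acids across membranes and fall into 2 branches. The cationic amino acid transporters take up arginine, lysine and ornithine and work without a partner. The light chains carry out the exchange of amino acids but reach the cell surface only when bound by a disulfide bridge to a heavy chain, which is a glycoprotein with a single membrane span and no transport channel of its own. SLC3A2 (4F2hc, CD98) is the heavy chain of most light chains, and SLC3A1 (rBAT) is known as the partner of SLC7A9 in the kidney tubule and small intestine. Loss of SLC7A7 function causes lysinuric protein intolerance, and loss of SLC3A1 or SLC7A9 function causes cystinuria. In the deposited gene ontology annotation, 9 of 9 members were assigned to the plasma membrane, 6 to the basolateral and 6 to the apical part of it.

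The 6 libraries held 15183490 to 18572167 reads in genes, as recovered from the deposited TPM values (transcripts per a fixed total, in which the reads of a gene are divided by its length). RCVRN was listed at 0 in each A549 MOCK library and at 322 to 339 TPM in the A549 Rec libraries, and was the only gene of 17408 tested that was called between the groups (0.00574% of tested genes, limma with an adjusted p below 0.05 and a 2-fold difference or more). Mitochondrially encoded genes took 13.3% to 17.3% of the TPM in the replicate 1 and 2 libraries, but 34.5% in A549 MOCK 3 and 26.9% in A549 Rec 3. As TPM has a fixed total, values were also rescaled without these genes. Both scales are given in part, and where TPM alone is given the rescaled values may differ. Of 6 epithelial markers, 4 (CDH1, KRT7, KRT8 and KRT18) were above 1 TPM in each library, EPCAM ran from 0.979 to 2.98 TPM, and KRT19 had at most 4 reads in any library. The alveolar type II marker SFTPA1 was at 0 and none of 4 such markers reached 1 TPM in every library.

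The levels of the 9 genes spanned a wide range, and SLC7A5 was the most abundant (mean of 845 TPM over the 6 libraries, rank 105 among all genes). SLC7A5 was followed by SLC3A2 (303 TPM), SLC7A1 (47.6 TPM), SLC7A7 (45.3 TPM), SLC7A2 (38.3 TPM), SLC7A6 (25.8 TPM), SLC3A1 (6.36 TPM), SLC7A8 (1.59 TPM) and SLC7A9 (0.048 TPM). The order was set by the means of these libraries and includes SLC7A7, so it is a description, with no test. For 6 of the 8 neighbouring pairs in this order, the higher gene was higher in 6 of 6 libraries. SLC7A1 was above SLC7A7 in 4 of 6 libraries, with a mean log2(TPM + 1) difference of 0.10 that was smaller than its SD of 0.42. SLC7A2 exceeded SLC7A6 in 5 of 6 libraries (mean log2 difference of 0.52 with an SD of 0.31).

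**Figure D1:**
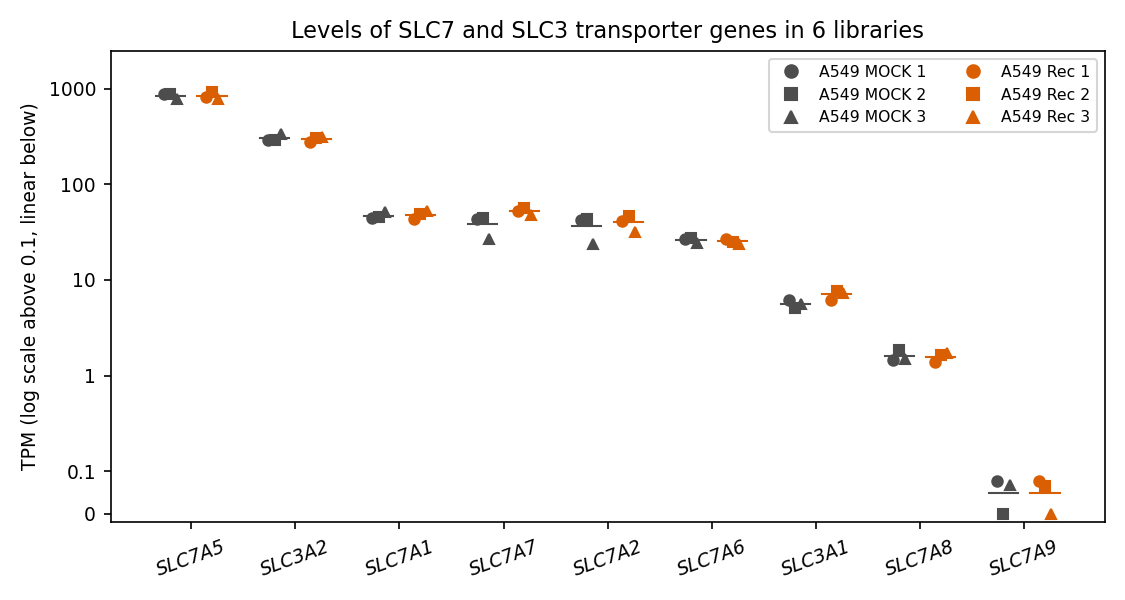
TPM of each gene in each library (log scale above 0.1, linear below), with A549 MOCK in grey, A549 Rec in orange, a marker shape for each replicate number and a bar at the group mean. SLC7A5 lies at 776 to 927 TPM and SLC3A2 at 278 to 338 TPM, SLC7A1, SLC7A2, SLC7A6 and SLC7A7 between 23.7 and 56.0 TPM, and SLC7A9 at or under 0.077 TPM.

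The sequences before the start sites of the most abundant gene, of SLC7A7 and of the least abundant gene are shown to set their letters beside these levels. Each is the 250 bases before a start site in RefSeq (GRCh38.p14), 5′ to 3′ on the gene's strand, with CG dinucleotides in capitals, and which start site A549 cells use was not measured. RefSeq sequences were found for 7 of the 9 genes, and where a gene had several, the start nearest to the 5′ end of the gene was taken.
SLC7A5 (chr16:87869508-87869757, minus strand): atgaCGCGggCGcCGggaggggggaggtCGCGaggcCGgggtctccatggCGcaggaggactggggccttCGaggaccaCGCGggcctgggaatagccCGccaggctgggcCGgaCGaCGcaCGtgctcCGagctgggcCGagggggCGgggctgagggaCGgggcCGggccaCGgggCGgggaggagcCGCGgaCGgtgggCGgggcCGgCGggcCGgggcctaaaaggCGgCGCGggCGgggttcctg
SLC7A7 (chr14:22819792-22820041, minus strand): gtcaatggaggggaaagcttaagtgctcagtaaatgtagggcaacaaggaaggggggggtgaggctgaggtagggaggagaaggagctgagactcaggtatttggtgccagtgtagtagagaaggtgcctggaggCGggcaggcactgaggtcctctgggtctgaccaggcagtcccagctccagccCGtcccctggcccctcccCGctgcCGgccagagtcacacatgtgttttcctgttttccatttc
SLC7A9 (chr19:32869768-32870017, minus strand): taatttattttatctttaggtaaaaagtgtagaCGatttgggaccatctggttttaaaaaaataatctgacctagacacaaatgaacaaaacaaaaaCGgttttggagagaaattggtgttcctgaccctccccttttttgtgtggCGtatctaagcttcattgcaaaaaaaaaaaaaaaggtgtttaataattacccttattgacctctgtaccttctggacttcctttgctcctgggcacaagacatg
The SLC7A5 sequence held 34 CG dinucleotides, a number reached by 6.84% of all 35116 sequences of this length. The SLC7A7 sequence, whose start site lies 10029 bases inside the 5′ end of the gene as deposited, held 4 (reached by 70.7%), and that of SLC7A9 held 3 (77.1%). SLC7A1, SLC7A6, SLC3A2 and SLC7A8 held 43, 37, 27 and 11. SLC7A7 thus stood beside SLC7A1 in level but not in this count. The median over all sequences was 11.

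SLC3A2, the heavy chain of SLC7A5, SLC7A6, SLC7A7 and SLC7A8, lies on chromosome 11 of GRCh38 (62856102 to 62888875, plus strand, ENSG00000168003). It was measured at 289.6, 291 and 338 TPM in A549 MOCK 1, 2 and 3 and at 278, 309 and 315 TPM in A549 Rec 1, 2 and 3. The groups overlapped, and the replicate 3 library was the highest of its group in both. The means of 306 ± 27.3 TPM in A549 MOCK and 301 ± 19.6 TPM in A549 Rec (SD, n = 3 each) differed by -0.02 on the log2(TPM + 1) scale (SE 0.13, 95% confidence interval -0.33 to 0.28, limma adjusted p = 0.9997).

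SLC3A1, the heavy chain known from cystine uptake, lies on chromosome 2 (44275458 to 44321494, plus strand, ENSG00000138079). Its levels were 6.16, 5.12 and 5.67 TPM in A549 MOCK and 6.24, 7.64 and 7.34 TPM in A549 Rec. Each A549 Rec library was above each A549 MOCK library, but by a narrow gap, with 204 reads for A549 Rec 1 beside 203 for A549 MOCK 1. The A549 Rec mean was higher by 0.28 on the log2 scale (SE 0.13, 95% confidence interval -0.02 to 0.58), which did not pass the test (limma adjusted p = 0.9997). The groups overlapped on the rescaled values, which ran from 6.07 to 8.65 in the MOCK libraries and from 7.55 to 10.0 in the Rec libraries. SLC3A1 shares 1923 exon bases (GENCODE v44) with PREPL on the opposite strand, which had 902 to 1200 reads, and as the strand setting of the counting is not given in the sources used here, reads of the pair cannot be told apart in that stretch. SLC7A9, its known partner, had at most 1 read in any library.

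SLC7A1 (CAT1), the widely expressed arginine carrier, lies on chromosome 13 (29509410 to 29595688, minus strand, ENSG00000139514). Its levels were 44.7, 45.2 and 51.1 TPM in A549 MOCK and 43.2, 49.3 and 52.5 TPM in A549 Rec. The groups overlapped almost fully, with a log2 difference of 0.04 (SE 0.12, 95% confidence interval -0.24 to 0.32, limma adjusted p = 0.9997), which turned to -0.01 on the rescaled values.

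SLC7A2 (CAT2), the other arginine carrier of this branch, lies on chromosome 8 (17497088 to 17570573, plus strand, ENSG00000003989). Its levels were 42.8, 43.3 and 23.7 TPM in A549 MOCK and 41.7, 46.7 and 31.9 TPM in A549 Rec. The replicate 3 library was the lowest in both groups. The log2 difference of 0.16 (SE 0.26, 95% confidence interval -0.44 to 0.77, limma adjusted p = 0.9997) was -0.12 without A549 MOCK 3 and 0.035 without both replicate 3 libraries. The 2 cationic carriers stood at a ratio of SLC7A1 to SLC7A2 of 1.03 to 1.06 in the replicate 1 and 2 libraries of both groups. A549 MOCK 3 had a ratio of 2.16, and A549 Rec 3 a ratio of 1.65.

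SLC7A5 (LAT1), the exchanger of large neutral amino acids such as leucine, lies on chromosome 16 (87830023 to 87869488, minus strand, ENSG00000103257). It was at 882, 886 and 776 TPM in A549 MOCK and at 821, 927 and 777 TPM in A549 Rec. The groups overlapped, and the replicate 3 libraries were the lowest on this scale. The means of 848 ± 62.2 and 842 ± 76.9 TPM (SD, n = 3 each) differed by -0.01 on the log2 scale (SE 0.15, 95% confidence interval -0.37 to 0.35, limma adjusted p = 0.9997). Of its near-identical copies, SLC7A5P1 had 4 to 24 reads and SLC7A5P2 had 0, beside 19435 to 25702 reads for SLC7A5. The antisense gene AC126696.2, with 1240 to 1707 reads, shares 271 exon bases with it.

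SLC7A6 (y+LAT2) exchanges arginine against neutral amino acids with sodium, as SLC7A7 does, and is the more widely expressed of this pair of carriers. It lies on chromosome 16 (68264516 to 68301823, plus strand, ENSG00000103064). Its levels were 27.1, 27.3 and 24.3 TPM in A549 MOCK and 27.0, 25.1 and 23.9 TPM in A549 Rec. In each pair A549 Rec was slightly lower, and the log2 difference was -0.05 (SE 0.10, 95% confidence interval -0.29 to 0.20, limma adjusted p = 0.9997). SLC7A6OS on the opposite strand, with 685 to 764 reads, shares 3372 exon bases with SLC7A6, which had 954 to 1112 reads. AC020978.9, also on the opposite strand and with 76 to 114 reads, shares 845. As the strand setting is not given, reads of these genes cannot be told apart in the shared stretches.

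SLC7A8 (LAT2), a second exchanger of neutral amino acids, lies on chromosome 14 (23125295 to 23183674, minus strand, ENSG00000092068). It was low in each library, with 1.46, 1.83 and 1.49 TPM in A549 MOCK and 1.37, 1.66 and 1.71 TPM in A549 Rec, from 41 to 58 reads. The log2 difference was -0.01 (SE 0.18, 95% confidence interval -0.44 to 0.43, limma adjusted p = 0.9997).

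SLC7A9 (b0,+AT), the light chain of SLC3A1, lies on chromosome 19 (32830509 to 32869766, minus strand, ENSG00000021488). The A549 MOCK libraries held 1, 0 and 1 of its reads, and the A549 Rec libraries 1, 1 and 0. A count of 0 allows up to 3 reads, which is 0.198 to 0.234 TPM per library, and SLC7A9 lay under this floor in both groups. No fold is given, and the gene was not tested. Floors of this kind cover counting error only.

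SLC7A7 (y+LAT1) exports arginine and lysine in exchange for neutral amino acids with sodium, and is known from the basolateral membrane of intestine and kidney and from macrophages. It lies on chromosome 14 (22773222 to 22829820, minus strand, ENSG00000155465), and no other gene in the annotation overlaps it. Its levels were 43.6, 44.9 and 26.7 TPM in A549 MOCK and 52.6, 56.0 and 47.7 TPM in A549 Rec, from 1128, 1136, 770, 1348, 1680 and 1290 reads. Each A549 Rec library was above each A549 MOCK library. A549 MOCK 3 stood well below the other 2 of its group, whereas A549 Rec 3 was close to A549 Rec 1 and 2. The A549 MOCK mean of 38.4 ± 10.2 TPM and the A549 Rec mean of 52.1 ± 4.18 TPM (SD, n = 3 each) lay 0.46 apart on the log2(TPM + 1) scale (SE 0.20).

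In the same-numbered pairs, SLC7A7 was 1.21-fold, 1.25-fold and 1.78-fold as high in A549 Rec, or 0.26, 0.31 and 0.81 on the log2(TPM + 1) scale. The third pair thus gave the largest value. Without A549 MOCK 3 the log2 difference between the groups was 0.23, and without both replicate 3 libraries it was 0.29. On the rescaled values, SLC7A7 was at 50.5, 53.3 and 40.8 in the MOCK libraries and at 63.6, 64.7 and 65.3 in the Rec libraries. On this scale the A549 Rec libraries were nearly level with each other, and the pairs differed by 0.33, 0.27 and 0.66.

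Markers of leukocytes and macrophages, in which SLC7A7 is known, were given beside it. Their summed level over 7 genes was 8.54 to 10.6 TPM in A549 MOCK and 10.3 to 12.03 TPM in A549 Rec. CD14 (4.53 to 7.35 TPM) and ITGAM (2.76 to 3.43 TPM) were the only 2 of the 7 that reached 1 TPM in each library. CD68, a lysosomal protein of macrophages, was at 0.363, 0.649 and 0.651 TPM in A549 MOCK and at 1.46, 0.704 and 1.47 TPM in A549 Rec, with at most 17 reads. Each A549 Rec library was above each A549 MOCK library for CD68, against 2.47% of all tested genes, and the groups of the other markers overlapped. The gap was narrow (0.704 TPM in A549 Rec 2 beside 0.651 TPM in A549 MOCK 3), and CD68 did not pass the filter of 1 TPM in 3 libraries. Its part in the SLC7A7 difference was not tested. CD3E was at 0, and PTPRC, CSF1R and LYZ had at most 4 reads in any library, so the defining marker of all leukocytes, PTPRC, was near 0. Of the 8 tested genes within 100000 bases of SLC7A7, none reached an unadjusted p under 0.05 (limma). OXA1L, 181 bases away, differed by 0.06 (SE 0.14, limma adjusted p = 0.9997) and MRPL52, 59 bases away, by 0.15 (SE 0.23, limma adjusted p = 0.9997) on the log2 scale. Both are nuclear genes for mitochondrial proteins, an insertase of the inner membrane and a ribosomal protein.

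Of the 7 tested members other than SLC7A7, 0 were called by limma, and 0 had an unadjusted p under 0.05, against 2.06% of all tested genes. With the replicate as a block in limma these counts were also 0 and 0, against 4.11% of all tested genes at the unadjusted p. With voom and a replicate block, 1 of the 7, SLC3A1, had an unadjusted p under 0.05, and 0 were called. The share of all tested genes under that p was not computed for this fit. Of the 8 tested members, 4 were higher and 4 lower in A549 Rec. Their median log2 difference was 0.02, the same as that of all tested genes (0.02), and -0.02 for both on the rescaled values. Rec libraries all lay above MOCK libraries for 2 members, SLC7A7 and SLC3A1, against 2.47% of all tested genes, and for SLC7A7 alone on the rescaled values, against 2.78%. No member lay below all A549 MOCK libraries in each A549 Rec library, against 2.69%. The 3 pairs were all higher in A549 Rec for the same 2 members, against 13.1% of all tested genes, and on the rescaled values also for SLC7A2, against 10.7%. SLC7A6 alone was lower in A549 Rec in all 3 pairs, against 9.66%, and on the rescaled values no member was, against 15.5%. With 8 genes and 1 of them chosen for its difference, these counts are too small to be read as particular to the family.

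**Figure D2:**
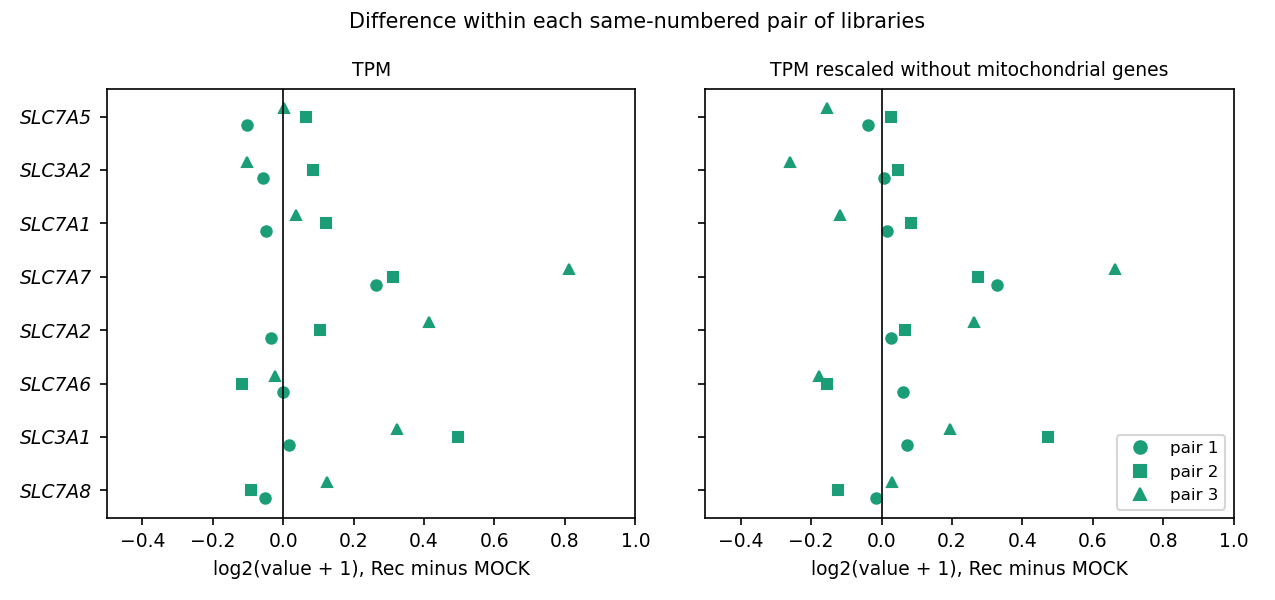
Difference of A549 Rec minus A549 MOCK on the log2(value + 1) scale within each same-numbered pair, for TPM and for TPM rescaled without mitochondrially encoded genes, with 1 marker a pair. The points of SLC7A7 lie at 0.26, 0.31 and 0.81 on the left and at 0.33, 0.27 and 0.66 on the right, and those of SLC3A2, SLC7A1, SLC7A5 and SLC7A8 lie on both sides of 0 in each panel.

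Ratios within a library do not depend on the total to which TPM is scaled. SLC7A5 made up 91.0% to 93.7% of the summed TPM of the 4 light chains of SLC3A2, and SLC7A8 0.152% to 0.201%. SLC7A7 made up 4.58%, 4.68% and 3.23% in the MOCK libraries and 5.83%, 5.55% and 5.61% in the Rec libraries. SLC7A6 made up 2.84%, 2.84% and 2.93% in the MOCK libraries and 3.00%, 2.48% and 2.81% in the Rec libraries. The share of SLC7A7 was thus higher in each A549 Rec library, while the shares of SLC7A6 overlapped.

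The ratio of SLC7A7 to SLC7A6, which carry similar substrates, was 1.61, 1.65 and 1.10 in the MOCK libraries and 1.94, 2.23 and 2.00 in the Rec libraries. The groups did not overlap. Against their shared heavy chain SLC3A2, SLC7A7 stood at 0.151, 0.154 and 0.0792 in the MOCK libraries and at 0.189, 0.181 and 0.152 in the Rec libraries, and here A549 Rec 3 lay within the range of A549 MOCK. As SLC7A7 was chosen for its difference, these ratios carry no test. Reads that cannot be told apart from those of SLC7A6OS may enter the level of SLC7A6 and so the ratio to it.

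The 4 light chains summed to 3.29, 3.29 and 2.45 times SLC3A2 in the MOCK libraries and to 3.24, 3.26 and 2.70 times SLC3A2 in the Rec libraries. With SLC7A11, another light chain of SLC3A2, they summed to 2.76 to 3.60 times. Light chain transcripts were therefore above that of their heavy chain in each library, and least so in the replicate 3 libraries. SLC3A1 stood at 0.0213, 0.0176 and 0.0168 of SLC3A2 in the MOCK libraries and at 0.0224, 0.0247 and 0.0233 in the Rec libraries. These groups did not overlap, but by a narrow gap (0.0213 beside 0.0224). How often the ratios of other genes stand apart was not computed, and reads that cannot be told apart from those of PREPL enter this ratio.

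**Figure D3:**
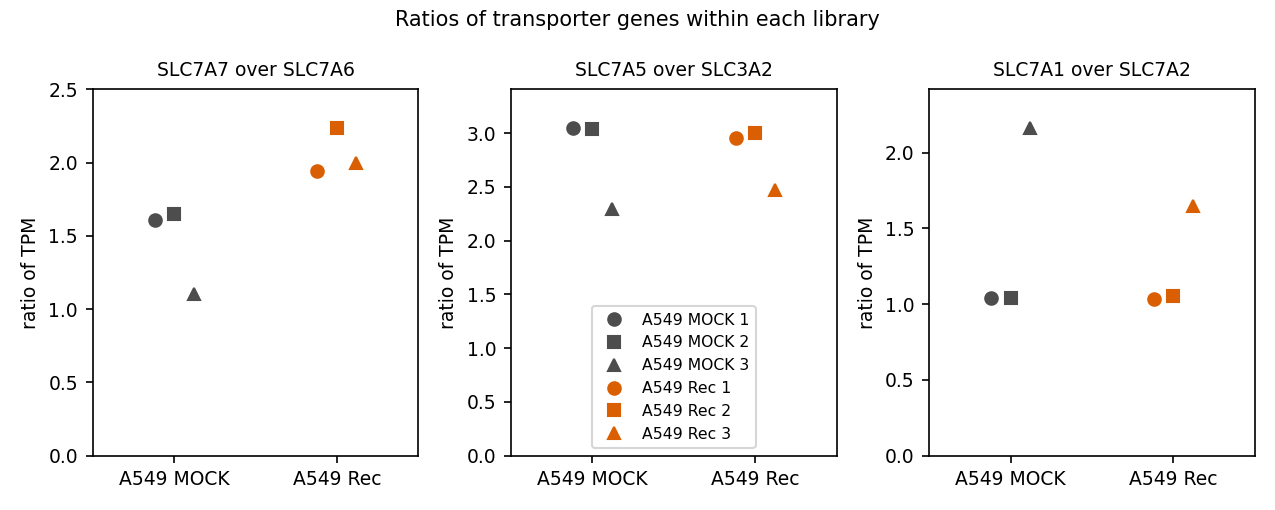
Ratio of TPM within each library for SLC7A7 over SLC7A6, SLC7A5 over SLC3A2 and SLC7A1 over SLC7A2, with A549 MOCK in grey, A549 Rec in orange and a marker shape for each replicate number. SLC7A7 over SLC7A6 is 1.10 to 1.65 in the MOCK libraries and 1.94 to 2.23 in the Rec libraries, and the replicate 3 libraries stand apart in the other 2 panels, at 2.30 and 2.47 and at 2.16 and 1.65.

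The replicate 3 libraries of both groups, which had the larger mitochondrial shares, stood apart for several members. On the TPM scale both were above the other 4 libraries for SLC3A2 and SLC7A1 (2 of 8 tested members, against 6.40% of all tested genes) and below them for SLC7A2, SLC7A5 and SLC7A6 (3 of 8, against 44.0%). On the rescaled values both were above for SLC3A2, SLC7A1 and SLC7A8 (3 of 8, against 27.3%) and below for SLC7A2 alone (1 of 8, against 14.8%). SLC3A2 was at 335, 345 and 516 in the MOCK libraries and at 337, 357 and 430 in A549 Rec on that scale. SLC7A2 and SLC3A2 thus kept opposite directions on both scales, whereas SLC7A5 and SLC7A6 were apart only on the TPM scale.

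Genes of the amino acid response through the transcription factor ATF4, of which SLC3A2, SLC7A1, SLC7A5 and SLC7A11 are known targets, were read in the same libraries. On the TPM scale both replicate 3 libraries were above the other 4 for 5 of 12 genes (ATF4, DDIT3, ASNS, TRIB3 and CHAC1, against 6.40% of all tested genes) and below for 5 (EIF2AK4, PHGDH, PSPH, SHMT2 and CEBPB, against 44.0%). On the rescaled values they were above for 7 (those 5, PSAT1 and SHMT2, against 27.3%) and below for EIF2AK4 alone (1 of 12, against 14.8%). SHMT2 thus changed side with the scale, and 5 of the genes above did not. DDIT3, a transcription factor of the stress response, was at 37.7, 45.5 and 241 TPM in A549 MOCK and at 49.8, 50.9 and 167 TPM in A549 Rec. CHAC1, which degrades glutathione, was at 5.60, 5.82 and 23.2 TPM in A549 MOCK and at 6.62, 9.48 and 18.4 TPM in A549 Rec. Both were highest in the replicate 3 library of each group. The leucine sensor SESN2 was at 12.3, 11.4 and 33.2 TPM in A549 MOCK and at 12.6, 15.5 and 27.6 TPM in A549 Rec. SLC7A11, the cystine and glutamate exchanger, was at 88.9, 88.4 and 104 TPM in A549 MOCK and at 89.0, 94.8 and 97.0 TPM in A549 Rec. The part of the mitochondrial share in this was not tested.

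**Figure D4:**
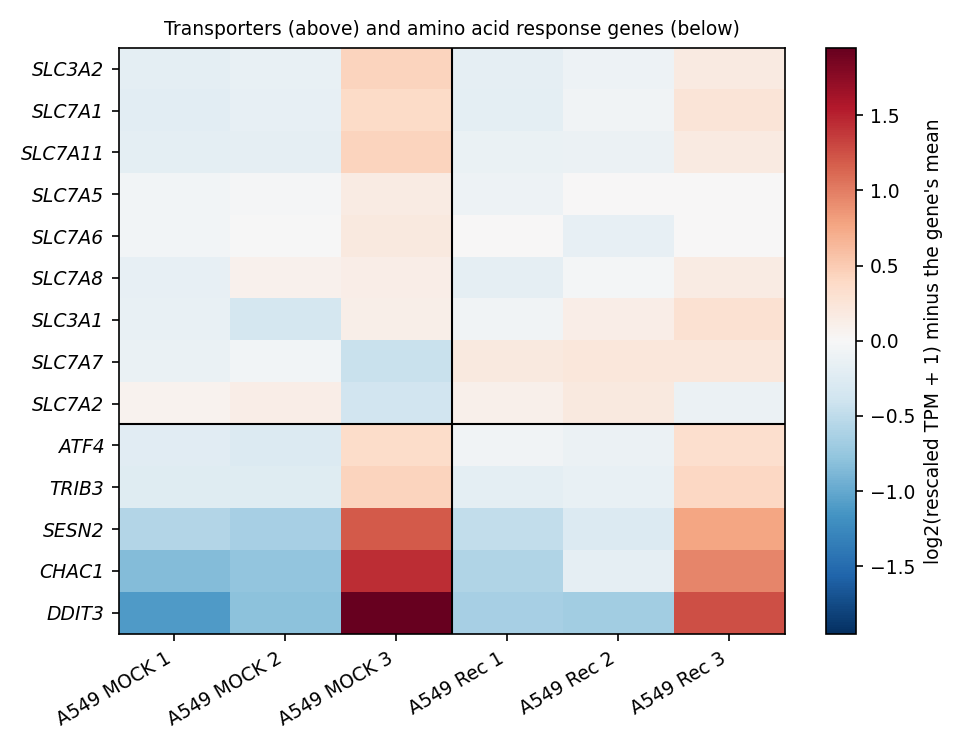
Rescaled TPM of 9 SLC7 and SLC3 genes (above the line) and 5 picked genes (below) in each library. Values are log2(rescaled TPM + 1) minus the gene's mean over the 6 libraries. The 5 genes, ATF4, TRIB3, CHAC1 and DDIT3 of the ATF4 response and the leucine sensor SESN2, were picked after their values were seen. Of all 12 genes of the ATF4 response, both replicate 3 libraries were above the others for 7 and below for 1 on this scale. A549 MOCK 3 and A549 Rec 3 are red for SLC3A2, SLC7A1, SLC7A11 and the 5 picked genes and blue for SLC7A2. SLC7A7 is blue in A549 MOCK 3 and pale red in the 3 A549 Rec libraries.

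Among the other 6 genes of the SLC7 family, SLC7A11 alone passed the filter of 1 TPM in 3 libraries, with a log2 difference of -0.00. SLC7A3 and SLC7A13 were at 0 in each library, and SLC7A4, SLC7A10 and SLC7A14 had at most 5 reads. Of 22 other amino acid carriers of the plasma membrane, 11 were tested and 0 called in either direction. The highest were the glutamine carriers SLC1A5 (278 to 325 TPM), SLC38A2 (154 to 171 TPM) and SLC38A1 (129 to 160 TPM), and SLC1A6 and SLC6A19 were at 0. Their median log2 difference was -0.02, and the values ran from -0.35 for SLC1A3 (SE 0.19, limma adjusted p = 0.9997) to 0.22 for SLC43A1. On the rescaled values SLC1A3, a glutamate carrier, was at 5.72, 5.53 and 4.87 in the MOCK libraries. It was at 3.44, 4.38 and 3.73 in the Rec libraries, with no overlap. The log2 difference on this scale was -0.40 (SE 0.15) with an unadjusted p under 0.05 (limma). SLC1A3 was not called (limma adjusted p = 0.9995). How often other tested genes give such values on the rescaled scale was not computed. On the TPM scale the SLC1A3 groups overlapped, and its unadjusted p was not under 0.05 (limma). SLC1A3 is 1 of the 11 tested carriers and was picked after its values were seen. On the TPM scale each A549 Rec library was above each A549 MOCK library for SLC1A4 and SLC1A5, 2 of the 11, against 2.47% of all tested genes, and these groups overlapped on the rescaled values. Levels of SLC1A5 and SLC38A2 thus stood between those of SLC7A5 and SLC7A1.

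Of 6 lysosomal amino acid carriers, 6 were tested and 0 called (median of -0.03), and the highest were the cystine exporter CTNS (29.5 to 35.9 TPM), SLC66A1 (21.8 to 30.5 TPM) and SLC38A7 (18.9 to 23.6 TPM). Of 22 genes that sense amino acids for the growth kinase mTORC1, 21 were tested and 0 called, with a median of 0.04. RRAGA (137 to 254 TPM), LAMTOR1 (123 to 153 TPM) and LAMTOR5 (76.2 to 102 TPM), parts of the complexes that hold mTORC1 at the lysosome, were the highest. RRAGB and FLCN, 2 of the 21, were lower in each A549 Rec library than in each A549 MOCK library on the TPM scale, against 2.69% of all tested genes, and overlapped on the rescaled values. The 12 genes of the ATF4 response gave 12 tested and 0 called, with a median of 0.08, and DDIT4 (648 to 855 TPM), CEBPB (316 to 437 TPM) and ATF4 (293 to 383 TPM) were the highest. PSAT1, an enzyme of serine synthesis, was the 1 gene of that list with each A549 Rec library above each A549 MOCK library (214.7, 222 and 222 against 261, 269.6 and 249 TPM), against 2.47% of all tested genes, with a log2 difference of 0.24 (SE 0.11, limma adjusted p = 0.9997). The PSAT1 groups overlapped on the rescaled values (248, 263 and 338 against 315, 311 and 341). Of 12 genes of arginine and ornithine metabolism, 8 were tested and 0 called, with a median of 0.10. SMS (208 to 297 TPM), ASS1 (132 to 205 TPM) and OAT (78.5 to 119 TPM) were the highest, and NOS1 was at 0. The groups of ARG2 and OAT overlapped on the TPM scale. On the rescaled values each A549 Rec library was above each A549 MOCK library for both, against 2.78% of all tested genes. The medians of these lists, in the order given, were -0.07, -0.002, 0.04 and 0.05 on the rescaled values, beside -0.02 for all tested genes. In these lists no gene had an unadjusted p under 0.05 by limma on the TPM scale.

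**Figure D5:**
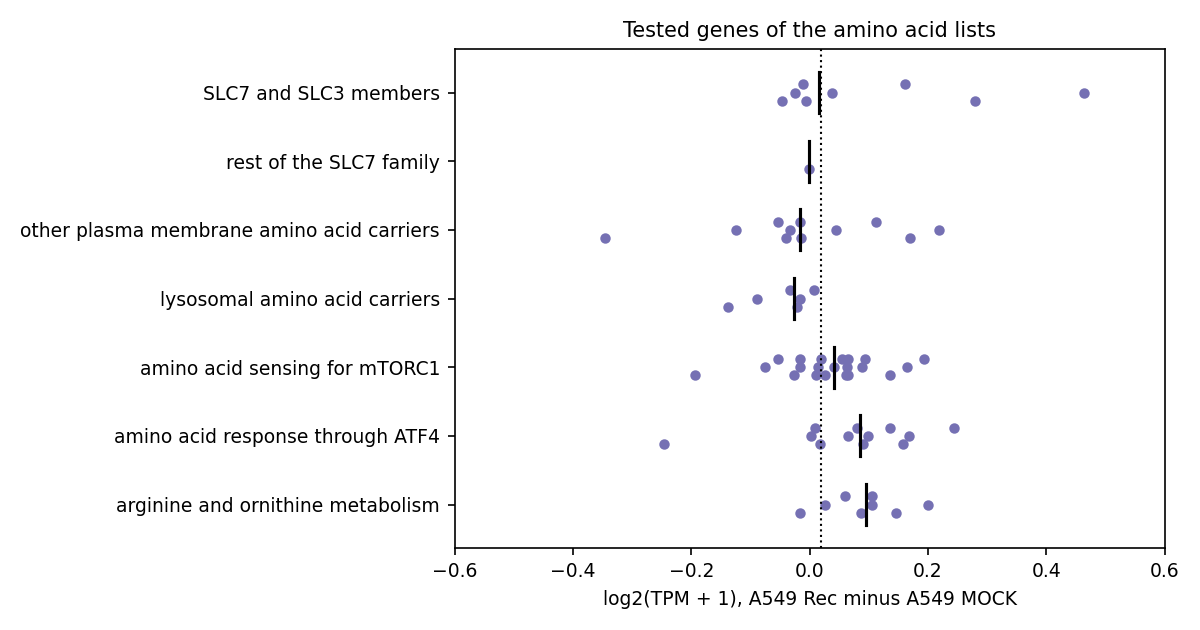
Difference of A549 Rec minus A549 MOCK on the log2(TPM + 1) scale for each tested gene of the lists, with 1 point a gene, a black bar at the median of each list and a dotted line at the median of all tested genes (0.02). The list medians lie between -0.03 and 0.10, and SLC7A7 at 0.46 is the point farthest to the right.

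The genes whose levels followed those of SLC7A7 most closely over the 6 libraries were NEDD9 (Pearson r on log2(TPM + 1) of 0.996), OAS1 (0.995), STX17 (0.994), ZNF529-AS1 (0.993) and AGFG1 (0.992), of 148 genes above 0.95. On the rescaled values 35 genes were above 0.95 and the first 5 were C1orf198 (0.990), ARG2 (0.987), TM4SF20 (0.984), ZNF529-AS1 (0.984) and RPL11 (0.980), so that ZNF529-AS1 alone was among the first 5 on both scales. For SLC3A2 they were A4GNT (0.997), AC067852.3 (0.989), TMEM147-AS1 (0.987), C8G (0.986) and MIR7161 (0.986), of 56 genes above 0.95 on the TPM scale. On the rescaled values 833 genes were above 0.95 and TMEM147-AS1 (0.998) alone of these 5 was among the first 5. Among the members, SLC7A7 had an r of 0.850 with SLC7A2 and -0.671 with SLC3A2 (0.657 and -0.516 on the rescaled values). SLC3A2 had an r of 0.905 with SLC7A1 and -0.799 with SLC7A2 (0.981 and -0.947 on the rescaled values). With SLC7A6 and SLC7A5 the sign for SLC3A2 depended on the scale (-0.879 and -0.457 on the TPM scale, 0.749 and 0.900 on the rescaled values), and so did that for SLC7A7 (0.335 and 0.549 against -0.707 and -0.661). These values describe 6 libraries that share the replicate 3 difference and the mitochondrial share, and they carry no test.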

How the data were processed

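RNA from 2D-cultured A549 Rec and A549 MOCK cells (3 samples each) was sequenced. Per the labels and the methods of the study, the authors trimmed reads with Trimmomatic 0.38, checked them with FastQC 0.11.7, mapped them with HISAT2 2.1.0 and counted them per gene with featureCounts 1.6.3. The study names GRCh38 and the submitters' processing notes name a mouse build, whereas the deposited table holds human gene identifiers and positions of GRCh38. The annotation release, the strand setting and the handling of multiply mapped reads are not given in the sources used here. The deposited values are TPM, which the authors scaled to the same total in each library with no further normalization.

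From the TPM, whole reads and gene lengths were recovered (taking values no more than 0.01 from a whole number as whole), which for simulated data gave the exact reads for 96.3% of 7632 genes. For 5 of the 9 members, the recovered length was that of the exons in GENCODE v44. Values of log2(TPM + 1) were tested with limma 3.58.1 (R 4.3.3, eBayes, trend) over 17408 genes that had at least 1 TPM in at least 3 libraries, without a block, with Benjamini-Hochberg adjustment over all of them. A gene was called when its adjusted p was below 0.05 and the groups differed 2-fold or more. Fold changes on this scale understate those of low genes. On simulated data this test called 196 of 200 genes changed 3-fold, and 7 others. The simulation gave all genes the same low spread, changed only genes with many reads and held no replicate 3 difference. It checks the code, and its rate does not carry over to these libraries. The order of levels was described on log2(TPM + 1), with a pseudocount because SLC7A9 had zeros. For rescaled values, 37 mitochondrially encoded genes were left out and the rest set to the same total.

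Groups and replicate numbers came from the labels. Same-numbered libraries deviated together (r over 17408 genes of 0.1146, 0.1639 and 0.342 for replicates 1, 2 and 3), although A549 MOCK 1 had an r of 0.1284 with A549 Rec 2. As each same-numbered r was above 0.1, the numbers were taken to pair the samples. The r of A549 MOCK 1 with A549 Rec 2 was above 0.1 too, so the values do not settle the pairing of replicates 1 and 2. The pairing comes from the data and the shared numbers and not from a stated batch. Pairs are given throughout and a fit with the replicate as a block was an alternative, as were another pseudocount, no filter, other filters and scalings, voom on the recovered reads, and leaving out libraries. The members and gene lists were chosen with earlier results of these data known. All 9 members were named whatever their values, and of each other list up to 3 genes with the highest mean TPM, those with an unadjusted p below 0.05 and those at 0 in each library. Of the genes that follow SLC7A7 or SLC3A2, the 5 with the highest r were named. SLC1A3, SLC1A4, SLC43A1, RRAGB, FLCN, PSAT1, ARG2, SESN2, DDIT3, CHAC1 and genes named for their replicate 3 libraries were picked after their values were seen.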

Additional observations from a re-analysis of the deposited data

How the results depend on the processing

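Of all tested genes, 1 was called, and this count was 6 without the filter on low values, 6 without the trend in limma, 2 without both replicate 3 libraries, 3 by voom with a replicate block and 1 to 2 when single libraries were left out. Genes with an unadjusted p below 0.05 and a 2-fold difference or more numbered 93, but 142 with a pseudocount of 0.1, 190 without both replicate 3 libraries and 115 to 148 when single libraries were left out. Tested members other than SLC7A7 with an unadjusted p below 0.05 numbered 0, and 1 by voom with a replicate block (SLC3A1). Genes of the other lists below that p numbered 0, and 1 without the filter, 1 on rescaled values, 1 with a replicate block, 3 with a replicate block on rescaled values, 2 by voom, 3 by voom with a replicate block, 6 without both replicate 3 libraries and 0 to 4 when single libraries were left out. Of all tested genes, 2.06% were below that p in the main fit and 4.11% with a replicate block. The shares under the other settings were not computed, so these counts are not read as a result about the lists or the members. Among the tested members other than SLC7A7, the replicate block, the pairing by number, changed no call. In this balanced design a block cannot change the log2 difference of any gene (0.46 for SLC7A7), only its SE.

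The small log2 differences changed sign under some settings. SLC3A2 gave 0.01 without both replicate 3 libraries and ran from -0.063 to 0.048 when single libraries were left out, above 0 without A549 MOCK 3 and without A549 Rec 1. SLC7A1 gave -0.0071 on rescaled values, and ran from -0.024 without A549 Rec 3 to 0.11. SLC7A2 ran from -0.12 without A549 MOCK 3 to 0.31, and gave 0.035 without both replicate 3 libraries. SLC7A5 ran from -0.083 to 0.044, above 0 without A549 MOCK 1, A549 MOCK 2, A549 Rec 1 or A549 Rec 3. SLC7A8 gave 0.0043 after quantile scaling and -0.072 without both replicate 3 libraries, and reached 0.058 without A549 MOCK 2. The cause was not tested. SLC7A7 stayed above 0 under each setting (0.23 to 0.59 when single libraries were left out), as did SLC3A1 (0.22 to 0.36). As SLC7A7 was chosen for its rise in these same libraries, its constant sign carries no weight.

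Depth limits SLC7A9, which lay under the floor of 3 reads. With 3 libraries a group and replicate 3 libraries that stood apart, log2 differences within the intervals given above were not detectable.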
